A study of Homo sapiens with 19 samples.

Results

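The 9 genes of the intermediate mesoderm and the embryonic kidney, OSR1, OSR2, PAX2, PAX8, WT1, SALL1, EYA1, SIX2 and GDNF, described here were followed across RNA-seq of human embryonic stem cells (hESCs) with and without Polycomb repressive complex 2 (PRC2). The rule takes them by symbol and uses no level, although the genes were picked with earlier results of these data known, and all 9 were found among the 33382 genes listed for each sample. All 19 samples derive from H1, an established hESC line. There were 2 samples of unedited WT H1 cells and 2 of each knockout: EZH1-/- H1 and EZH2-/- H1, which lack 1 of the alternative catalytic subunits, EZH2-/-/EZH1-/- H1, which lack both, and EED-/- H1 and SUZ12-/- H1, which lack another core subunit. H1-EED-/-/EED-OE cells, which lack endogenous EED and carry a lentiviral EED transgene switched on by doxycycline (DOX), were sampled once in the presence of DOX and once per time point, days 8, 12, 16, 20, 24 and 28, in cultures from which DOX had been taken away. The knockouts were made with CRISPR/Cas9 and homologous recombination in cultured cells, the double knockout in EZH2-/- cells, and the names of the 2 samples of a knockout differ in a clone or passage code, so that a difference between lines includes any difference between clones. The study describes H3K27me3, the histone mark that PRC2 places, as lost without EED, without SUZ12 or without both EZH2 and EZH1, the 3 knockouts called the PRC2-null lines here, and as lowered but still present in EZH1-/- and EZH2-/- H1 cells, which are grouped here with WT H1 as lines that retain the mark.

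The intermediate mesoderm lies between the somites and the lateral plate and gives rise to the kidneys and the gonads. OSR1 is among its earliest markers, PAX2 and PAX8 act together in forming the nephric duct, and WT1, SALL1, EYA1 and SIX2 act in the metanephric mesenchyme, the tissue that condenses into nephrons. The mesenchyme secretes GDNF, which binds the receptor RET with its coreceptor GFRA1 on the ureteric bud and draws out its branches. Many developmental regulators of this kind lie at CpG-rich promoters and carry H3K27me3 in pluripotent cells, and none of the 9 is restricted to the kidney: OSR1 is also made in the heart field, WT1 in gonad and mesothelium, PAX8 in thyroid, PAX2 in the otic and midbrain regions, and SALL1 in hESCs.

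Levels are in TPM, the share of a sample's transcripts that a gene makes up after its length is accounted for, with the same total in every sample, so genes may be compared with each other but the sequencing depth is unknown. Between 14389 and 17043 genes per sample reached 1 TPM. The study designed the deletions to remove a functional domain and examined the knockouts by genomic PCR, qRT-PCR and western blot. The targeted genes still had gene-level TPM, which therefore does not check the deletions, and the reason was not tested. EED was at 14.25 and 22.36 TPM in EED-/- H1 and at 17.3 and 21.96 in WT H1. SUZ12 was at 22.94 and 20.76 in SUZ12-/- H1 and at 25.21 and 27.89 in WT H1. EZH1 was at 12.49 and 17.07 in EZH1-/- H1 (WT H1 13.71 and 14.29) and EZH2 at 46.94 and 22.02 in EZH2-/- H1 (WT H1 54.55 and 58.89). With the transgene switched on EED was at 108.54 TPM, and it was at 12.64 to 31.56 after DOX withdrawal. The summed level of 9 hESC markers was 300 to 894 TPM in the 6 PRC2-null samples and 6038 to 7172 in the 6 samples that retain H3K27me3. In bulk samples, fewer cells of a type and less RNA per cell cannot be told apart. The median log2 difference of the 19100 genes tested was 0.28 between the average of the PRC2-null lines and WT H1, and 0.19 after scaling by median ratios. Replicates differed by a median of 0.13 (SUZ12-/- H1) to 0.51 (EZH2-/-/EZH1-/- H1) on the log2 scale.

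Positions are on GRCh38, with those of OSR2 and EYA1 given beside their levels. OSR1 (ENSG00000143867, chr2:19351485-19358623), SIX2 (ENSG00000170577, chr2:45005182-45009452) and PAX8 (ENSG00000125618, chr2:113215997-113278921) are on the minus strand of chromosome 2. GDNF (ENSG00000168621, chr5:37812677-37840041), WT1 (ENSG00000184937, chr11:32387775-32435564) and SALL1 (ENSG00000103449, chr16:51135982-51152334) are also on the minus strand, and PAX2 (ENSG00000075891, chr10:100735396-100829944) on the plus strand. RefSeq promoter windows of 300 bases were matched for 5 of the 9 (WT1, PAX2, PAX8, SIX2 and GDNF) and not for OSR1, OSR2, SALL1 and EYA1. GDNF and WT1 have 4 windows each, PAX2 has 2, and PAX8 and SIX2 have 1 each. Only the window nearest the annotated gene start was read, so other promoters of GDNF, WT1 and PAX2 are left out. The windows of GDNF and SIX2 held 32 and 29 CpG dinucleotides, numbers that 18.9% and 24.2% of all 35116 windows reach. WT1 had 21 (39.5% of windows), PAX2 14 (50.3%) and PAX8 13 (51.7%), against a median of 14. The 250 bases before the start are shown for the pair richest in CpG and for PAX8, the poorest of the 5, 5′ to 3′ on the minus strand of GRCh38.p14 with each CG in capitals, from chr5:37840042-37840291 for GDNF, chr2:45009453-45009702 for SIX2 and chr2:113278922-113279171 for PAX8.
GDNF: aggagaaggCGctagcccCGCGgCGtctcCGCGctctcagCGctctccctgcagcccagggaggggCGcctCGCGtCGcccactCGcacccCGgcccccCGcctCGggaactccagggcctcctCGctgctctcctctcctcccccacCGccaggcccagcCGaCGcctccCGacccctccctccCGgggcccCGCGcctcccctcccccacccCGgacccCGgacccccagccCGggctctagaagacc
SIX2: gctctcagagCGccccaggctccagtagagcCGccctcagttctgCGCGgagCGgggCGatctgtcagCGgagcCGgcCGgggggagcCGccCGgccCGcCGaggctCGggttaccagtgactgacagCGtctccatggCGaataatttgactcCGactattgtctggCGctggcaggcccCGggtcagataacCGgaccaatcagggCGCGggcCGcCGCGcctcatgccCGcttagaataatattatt
PAX8: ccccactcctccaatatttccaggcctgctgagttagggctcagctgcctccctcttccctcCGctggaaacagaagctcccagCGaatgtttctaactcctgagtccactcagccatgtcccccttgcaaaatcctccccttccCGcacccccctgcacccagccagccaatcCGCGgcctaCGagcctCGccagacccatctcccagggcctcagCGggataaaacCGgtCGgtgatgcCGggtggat
The parts shown hold 26, 26 and 11 CG in that order. In TPM, GDNF and SIX2 reached 24.84 and 8.46 in the PRC2-null lines, WT1 1.93, PAX2 18.3 and PAX8 3.35. With 5 windows, nothing on CpG content and level was tested.

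Of the 9 genes, 4 rose and 1 fell when the mean of the 3 PRC2-null lines was compared with WT H1: OSR1, OSR2, PAX2 and GDNF were higher and SALL1 was lower. Calls are at an adjusted p of at most 0.01 and a fold change of at least 3 in limma on log2(TPM + 1), with Benjamini-Hochberg adjustment over the 19100 genes tested, of which 13.6% were called up and 5.36% down. Line by line, 5 rose in SUZ12-/- H1 (background 14.5% up, 5.21% down), 4 in EED-/- H1 (16.2% up, 6.09% down) and 4 in EZH2-/-/EZH1-/- H1 (11.6% up, 5.66% down), and SALL1 fell in each. The median log2 difference of the 9 in the average was 1.36, against 0.28 over all genes tested. All 9 passed the filter on low values, which asks for 1 TPM or more in 2 or more of 12 samples, but 7 of them, all but SALL1 and SIX2, were below 1 TPM in every sample that retains H3K27me3, so they passed through the PRC2-null lines alone and these counts support nothing by themselves. For 6 of the 9 (OSR1, OSR2, PAX2, WT1, EYA1 and GDNF) the lowest PRC2-null sample exceeded the highest of the others, as it did for 24.2% of all genes tested. PAX8, SIX2 and SALL1 overlapped.

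**Figure D1:**
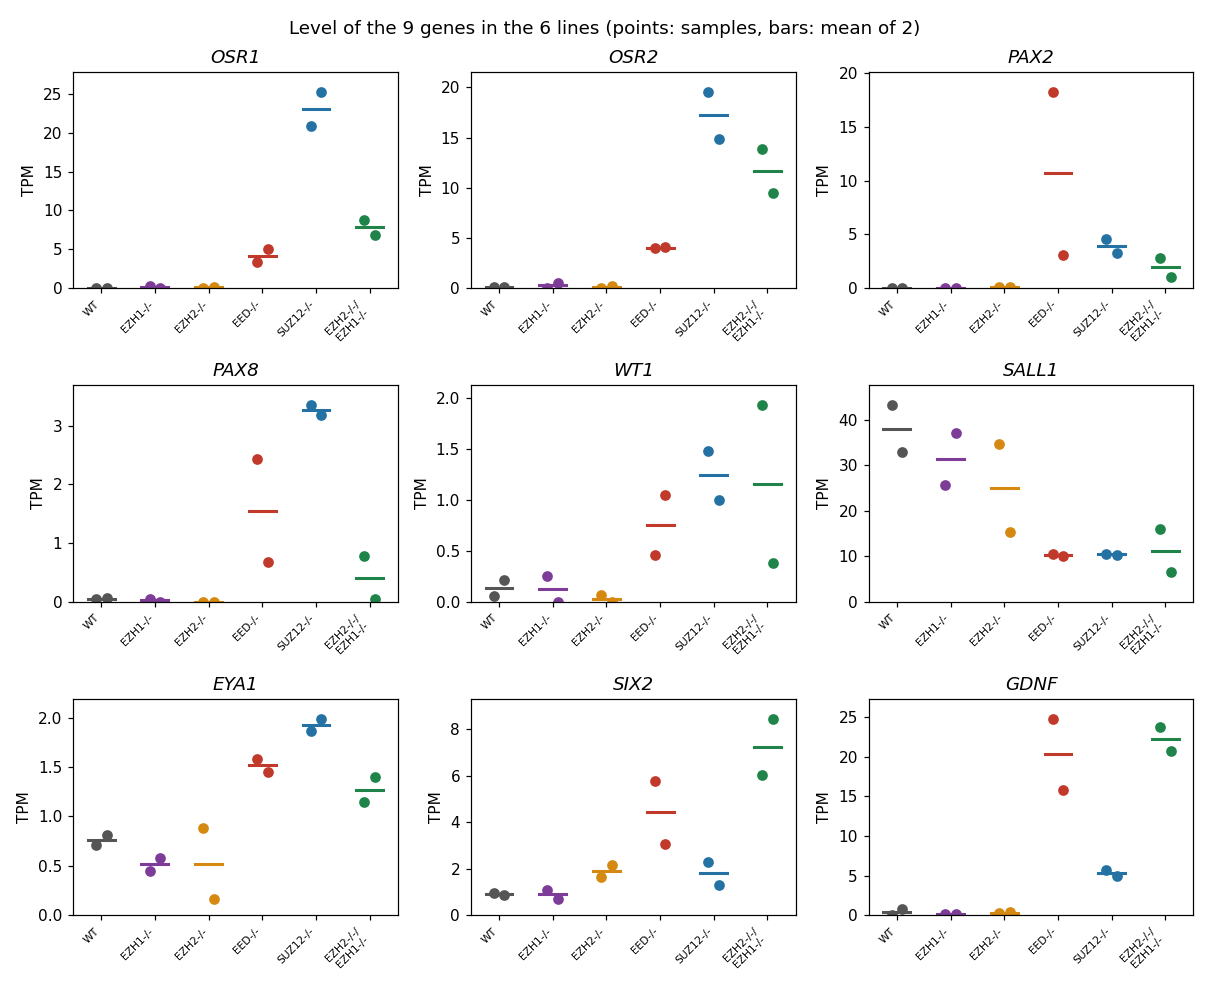
TPM (linear axes from 0, one scale per panel) of the 9 genes in the 6 lines, with each sample as a point and the mean of the 2 samples of a line as a bar. OSR1 and OSR2 were highest in SUZ12-/- H1, GDNF in EED-/- and EZH2-/-/EZH1-/- H1, and SALL1 in the lines that retain H3K27me3.

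OSR1 and OSR2, related zinc-finger factors of the early intermediate mesoderm, were near 0 in the lines that retain H3K27me3 and followed one order in the PRC2-null lines. OSR1 was at 0.07 and 0 TPM in WT H1, 0.23 and 0.07 in EZH1-/- H1, 0 and 0.16 in EZH2-/- H1, 3.42 and 4.97 in EED-/- H1, 8.73 and 6.88 in EZH2-/-/EZH1-/- H1, and 20.86 and 25.31 in SUZ12-/- H1. The 3 PRC2-null lines did not overlap in OSR1, with means of 4.195 ± 1.096, 7.81 ± 1.31 and 23.1 ± 3.15 TPM (SD, n = 2 each). It rose on the log2 scale by 2.31 in EED-/- H1 (SE 0.27, adjusted p = 5.1e-05), by 3.08 in EZH2-/-/EZH1-/- H1 (SE 0.27, adjusted p = 1.1e-05) and by 4.54 in SUZ12-/- H1 (SE 0.27, adjusted p = 7.2e-07), all from limma. OSR2 (ENSG00000164920, chr8:98944403-98952104, plus strand) was at 0.06 and 0.14 TPM in WT H1, at 0 to 0.52 in the other lines that retain H3K27me3, at 3.97 and 4.1 in EED-/- H1, at 13.85 and 9.47 in EZH2-/-/EZH1-/- H1, and at 19.58 and 14.81 in SUZ12-/- H1. Its samples kept the same order of lines without overlap. It rose by 2.195 in EED-/- H1 (SE 0.30), 3.50 in EZH2-/-/EZH1-/- H1 and 4.04 in SUZ12-/- H1, with adjusted p-values of 0.00016, 9.9e-06 and 2.8e-06 in limma. Both genes passed in each PRC2-null line under every alternative tried, from 2.10 to 5.02 in EED-/- H1 for OSR1 and from 2.00 to 4.40 for OSR2.

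PAX2, the paired-box factor of the nephric duct and the nephron progenitors, was listed at 0 in both WT H1 and both EZH1-/- H1 samples and at 0.13 TPM in both EZH2-/- H1 samples. It was at 18.3 and 3.1 TPM in EED-/- H1, 4.61 and 3.25 in SUZ12-/- H1, and 2.84 and 1.05 in EZH2-/-/EZH1-/- H1. The samples of EED-/- H1, at 10.7 ± 10.7 TPM (SD, n = 2), lay on both sides of those of SUZ12-/- H1. The log2 difference from WT H1, for which no fold is given because WT H1 is listed at 0, was 3.15 in EED-/- H1 (SE 0.57, adjusted p = 0.00096) and 2.29 in SUZ12-/- H1 (SE 0.57, adjusted p = 0.0072), past the threshold in limma, and 1.49 in EZH2-/-/EZH1-/- H1 (adjusted p = 0.056), which was not. The call in EED-/- H1 was lost in a fit of only the 4 samples compared (adjusted p = 0.010). The call in SUZ12-/- H1 was lost with no filter on low values (adjusted p = 0.015) and when any 1 sample of WT, EZH1-/-, EZH2-/- or SUZ12-/- H1 was left out, with adjusted p-values of up to 0.051. In the average of the 3 lines it was 2.31 (SE 0.47, adjusted p = 0.0017), and without either WT H1 replicate 1 or WT H1 replicate 2 PAX2 was no longer called (highest adjusted p = 0.021).

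PAX8, its close relative, was at 0 to 0.06 TPM in the 6 samples that retain H3K27me3 and differed among the PRC2-null lines. It was at 3.35 and 3.18 TPM in SUZ12-/- H1, 2.43 and 0.67 in EED-/- H1, and 0.78 and 0.04 in EZH2-/-/EZH1-/- H1. The lower EZH2-/-/EZH1-/- H1 sample lay within the range of the samples that retain H3K27me3. PAX8 rose in SUZ12-/- H1 (log2 difference 2.02, SE 0.35, adjusted p = 0.00074 in limma), and was not called in EED-/- H1 (1.19, adjusted p = 0.015) or in EZH2-/-/EZH1-/- H1 (0.37, adjusted p = 0.41). WT1, a zinc-finger factor of the metanephric mesenchyme and later of podocytes, stayed low. It was at 0 to 0.25 TPM where H3K27me3 is retained, 0.46 and 1.05 in EED-/- H1, 1.48 and 1 in SUZ12-/- H1, and 1.93 and 0.38 in EZH2-/-/EZH1-/- H1. It was called in none of the 3 lines, with log2 differences of 0.62, 0.98 and 0.84 and adjusted p-values of 0.16, 0.037 and 0.072 in limma.

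SALL1, a zinc-finger factor of the mesenchyme that hESCs also express, was the most abundant of the 9 in the lines that retain H3K27me3 and moved the other way. It was at 43.25 and 32.86 TPM in WT H1, 25.57 and 37.05 in EZH1-/- H1 and 34.63 and 15.36 in EZH2-/- H1. It was at 10.49 and 10.09 in EED-/- H1, 10.58 and 10.21 in SUZ12-/- H1, and 15.88 and 6.41 in EZH2-/-/EZH1-/- H1. Only the lower EZH2-/- H1 sample reached into the PRC2-null range. Against WT H1 it fell by 1.78, 1.76 and 1.79 on the log2 scale in these 3 lines (SE 0.43 each, adjusted p = 0.0053, 0.0060 and 0.0062 in limma), and SUZ12-/- H1 differed from EED-/- H1 by 0.01 (95% interval -0.93 to 0.96). These calls depend on the processing and on single samples. With no filter on low values the call was lost in all 3 lines (adjusted p = 0.011 in EED-/-, 0.012 in SUZ12-/- and 0.013 in EZH2-/-/EZH1-/- H1), and in EZH2-/-/EZH1-/- H1 also in a fit of only the 4 samples compared (adjusted p = 0.037). In the average (log2 difference -1.78, adjusted p = 0.0014) the call was lost without WT H1 replicate 1, WT H1 replicate 2 or EZH2-/-/EZH1-/- H1 replicate 2, with values of -1.98 to -1.58 over all alternatives. Leaving out either WT H1 sample also ended the call in each line, as did leaving out EED-/- H1 replicate 1 or 2, or, for SUZ12-/- and EZH2-/-/EZH1-/- H1, SUZ12-/- H1 replicate 1 or 2. In EZH2-/-/EZH1-/- H1 it was also lost without its replicate 2 or either EZH1-/- H1 sample. Against the 3 lines that retain H3K27me3 the average was lower by a log2 difference of -1.46 (adjusted p = 0.00033 in limma), under a fold change of 3. SALL2 and SALL4, paralogs with which SALL1 could share reads, are also expressed in hESCs. SALL2 was at 128.75 to 269.85 TPM in the 6 samples that retain H3K27me3 and at 20.11 to 33.4 in the PRC2-null samples, and SALL4 at 56.08 to 85.86 and 25.03 to 57.3. The summed hESC markers moved with SALL1 between the lines, and their part in its fall was not tested.

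EYA1 and SIX2 act together in nephron progenitors, EYA1 as a coactivator and SIX2 in keeping progenitors from differentiating. EYA1 (ENSG00000104313, chr8:71197433-71592025, minus strand) was at 0.16 to 0.88 TPM in the 6 samples that retain H3K27me3 and at 1.14 to 1.99 in the PRC2-null samples, without overlap but within a narrow span. Its log2 differences of 0.73 in SUZ12-/- H1, 0.52 in EED-/- H1 and 0.37 in EZH2-/-/EZH1-/- H1 were not called (adjusted p = 0.043, 0.13 and 0.29 in limma). SIX2 was detected in every sample, at 0.95 and 0.88 TPM in WT H1, 1.08 and 0.7 in EZH1-/- H1, 1.64 and 2.15 in EZH2-/- H1, 2.29 and 1.29 in SUZ12-/- H1, 5.78 and 3.07 in EED-/- H1, and 6.03 and 8.46 in EZH2-/-/EZH1-/- H1. It rose in EZH2-/-/EZH1-/- H1 (log2 difference 2.09, SE 0.33, adjusted p = 0.00048 in limma). In EED-/- H1 the difference of 1.46 (SE 0.33) had an adjusted p of 0.0036 but a fold of 2.74, under the threshold of 3, and in SUZ12-/- H1 it was 0.52 (adjusted p = 0.22).

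GDNF, the ligand by which the mesenchyme induces the ureteric bud, showed the largest difference of the 9 in EED-/- and EZH2-/-/EZH1-/- H1. It was at 0.06 and 0.76 TPM in WT H1, 0.2 and 0.15 in EZH1-/- H1, 0.21 and 0.37 in EZH2-/- H1, 24.84 and 15.76 in EED-/- H1, 23.77 and 20.74 in EZH2-/-/EZH1-/- H1, and 5.64 and 4.94 in SUZ12-/- H1. EED-/- and EZH2-/-/EZH1-/- H1 overlapped and both lay above SUZ12-/- H1, the reverse of OSR1 and OSR2. GDNF rose by 3.93, 4.09 and 2.201 on the log2 scale in EED-/-, EZH2-/-/EZH1-/- and SUZ12-/- H1 (SE 0.32 each, adjusted p = 4.1e-06, 5.0e-06 and 0.00024 in limma), which is 15.2-, 17.0- and 4.60-fold on the log2(TPM + 1) scale. GDNF passed in all 3 lines under every alternative tried, but its rank among the 9 depended on the pseudocount. With 0.1 in place of 1, PAX2 had the larger difference in EED-/- H1 (6.26, GDNF 5.74). OSR1 was then level with GDNF in EZH2-/-/EZH1-/- H1 (5.91 each). GDNF overlaps GDNF-AS1, an antisense gene listed at 0.24 to 0.86 TPM where H3K27me3 is retained and at 1.51 to 7.43 in the PRC2-null lines. The libraries do not mark strand, so reads of the 2 genes cannot be told apart where they overlap. Antisense genes over WT1 and PAX8 reached 0.62 and 1.7 TPM in the PRC2-null lines.

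**Figure D2:**
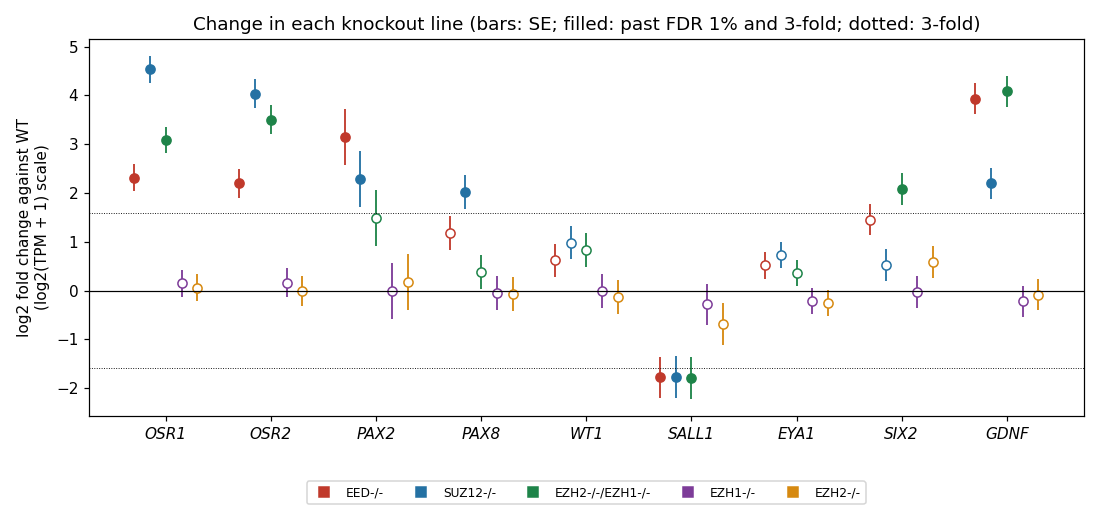
Log2 fold change of the 9 genes against WT H1 in the 5 knockout lines (points, limma on log2(TPM + 1)), with bars for the SE, filled points past an FDR of 1% and a 3-fold change, and dotted lines at 3-fold. Filled points lie in EED-/-, SUZ12-/- and EZH2-/-/EZH1-/- H1, with SALL1 the gene below 0, and the points of EZH1-/- and EZH2-/- H1 are open.

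EZH1-/- and EZH2-/- H1 cells, which lack a single catalytic subunit, gave no call. In EZH1-/- H1, 0 of the 9 were called against WT H1 in limma and 0 had an unadjusted p under 0.05 (background 0.0576% up and 0.0419% down, and 3058 genes at an unadjusted p under 0.05), with log2 differences of -0.28 to 0.17. In EZH2-/- H1, 0 of the 9 were called and 0 had an unadjusted p under 0.05, beside 0% of all genes called in either direction and 1110 genes at an unadjusted p under 0.05, with differences of -0.68 for SALL1 to 0.59 for SIX2. A miss does not show equal levels. The 95% intervals reached 0.75 for OSR1 and 0.84 for OSR2 in EZH1-/- H1 and 0.66 for both in EZH2-/- H1, below the smallest difference of either gene in a PRC2-null line. For SALL1 in EZH2-/- H1 the interval of -1.62 to 0.26 ends short of the -1.79 to -1.76 of the PRC2-null lines, and for SIX2 that of -0.13 to 1.31 includes the value of SUZ12-/- H1.

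The PRC2-null lines were also compared with one another. Against EED-/- H1, SUZ12-/- H1 had higher OSR1 (log2 difference 2.22, SE 0.27, adjusted p = 0.00031) and OSR2 (1.84, SE 0.30, adjusted p = 0.0019) and lower GDNF (-1.73, SE 0.32, adjusted p = 0.0035), in limma. That is 2 genes up and 1 down of 9, where 3.54% of all genes were called up and 2.58% down. After scaling by median ratios, which turns 676 genes up and 493 down in this comparison into 829 and 338 (57.8% and 71.0% up), OSR1 and OSR2 were still called and GDNF was not. GDNF was not called either in a fit of only the 4 samples compared. With a pseudocount of 0.1 none of the 3 was. The OSR2 and GDNF calls were also lost without EED-/- H1 replicate 1 or either SUZ12-/- H1 sample, which leaves OSR1. Against EZH2-/-/EZH1-/- H1, SUZ12-/- H1 had lower GDNF (-1.89, SE 0.32, adjusted p = 0.0028) and higher PAX8 (1.65, SE 0.35, adjusted p = 0.0098), beside 3.32% of genes up and 1.14% down. OSR1 (1.45, adjusted p = 0.0051) and SIX2 (-1.57, adjusted p = 0.0091) passed the FDR but not a fold change of 3. The GDNF and PAX8 calls were lost with a pseudocount of 0.1, in a fit of only the 4 samples compared and without either SUZ12-/- H1 replicate, and that of PAX8 also without EZH2-/-/EZH1-/- H1 replicate 2 and without either replicate of WT H1, EZH1-/- H1 or EZH2-/- H1. Between EZH2-/-/EZH1-/- and EED-/- H1, 0 of 9 were called in limma (0.0314% up and 0.0576% down over all genes). In this comparison 4 of the 9 had an unadjusted p under 0.05, beside 3831 of the 19100 genes tested, and the widest interval, -2.93 to -0.40, was for PAX2. Without EED-/- H1 replicate 2, PAX2 was called there.

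Among other genes of the kidney and intermediate mesoderm, 34 of 62 rose and 1 fell when the mean of the 3 PRC2-null lines was compared with WT H1, 21 did not pass and 6 were too low to test, with a median log2 difference of 2.28 over those tested (0.28 over all genes, of which 13.6% were called up and 5.36% down). Of the 56 tested, 27 were below 1 TPM in every sample that retains H3K27me3 and passed the filter through the PRC2-null lines alone, so these counts too are descriptions. The 9 intermediate mesoderm partners, all of which passed the filter in that way, rose (median 3.05), among them the posterior homeobox genes HOXD11, listed at 0 in WT H1 and at 21.83 to 76.07 TPM in the PRC2-null samples (log2 difference 5.28, SE 0.26, adjusted p = 1.3e-07), and HOXA11, at 0 and at 16.04 to 30.88 (4.55, SE 0.19). Of 12 partners in nephron progenitors 4 rose, with DACH1 at 0.14 and 0.15 TPM in WT H1 and 6.93 to 31.21 in the PRC2-null samples and ROBO2 at 3.88 and 1.76 and at 8.31 to 43.04. ROBO2 was called in the average (adjusted p = 0.0046 in limma) but in no single line. Its adjusted p in limma was 0.012 in EED-/-, 0.018 in SUZ12-/- and 0.020 in EZH2-/-/EZH1-/- H1. Of 11 genes of GDNF-RET signalling and the ureteric bud, 4 rose and 1 fell. The gene that fell was ETV4, at 111 and 88 TPM in WT H1 and at 20.22 to 40.45 in the PRC2-null samples. GFRA1, the GDNF coreceptor, was at 0.34 and 0.64 TPM in WT H1, 25.56 and 39.7 in EED-/- H1, 30.34 and 29.14 in EZH2-/-/EZH1-/- H1 and 7.21 and 5.37 in SUZ12-/- H1, so that SUZ12-/- H1 was the lowest of the PRC2-null lines, as for GDNF. RET was at 4.96 and 5.33 TPM in WT H1 and at 0.78 to 6.77 in the PRC2-null samples. ETV4, GFRA1 and RET were chosen after their values were seen. By the rule for named genes, GREM1, a BMP antagonist needed for budding, went from 0.19 and 0.36 TPM to 11.75 to 215.35, and WNT11, a ligand of the ureteric tip, from 0.06 and 0.16 to 12.37 to 19.7.

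Of 6 genes of nephron induction 5 rose, led by LEF1, a mediator of WNT signalling (0.26 and 0.44 TPM in WT H1, 36.18 to 70.71 in the PRC2-null samples), and CDH6, a cadherin of the renal vesicle (0.83 and 1.63, 21.79 to 104.07). Of 7 stromal genes 6 rose, with POSTN, a matrix protein made in many mesenchymal tissues, at 1.51 and 1.21 and at 181.28 to 624.33 TPM, and MEIS2 at 0.43 and 0.04 and at 20.18 to 37.48. Of 7 podocyte genes 3 rose, including SYNPO and PLA2R1, and 1 was too low to test. PODXL, which is also a marker of hESCs and makes up most of the podocyte sum where H3K27me3 is retained, was at 416.6 to 653.08 TPM in those samples and at 11.95 to 373.6 in the PRC2-null samples (log2 difference -2.23, adjusted p = 0.056 in limma). The podocyte list summed to 420 to 660 and 119 to 538 TPM in the same order. Of 10 tubule genes 3 rose and 5 were too low to test. AQP1 went from 0.13 and 0 TPM in WT H1 to 36.25 to 283.15 in the PRC2-null samples and LRP2 from 0.68 and 1.56 to 7.02 to 67.41, both of which other epithelia or vessels also express. CUBN was at 1.29 to 6.3 TPM in the PRC2-null samples and at 0 to 0.04 where H3K27me3 is retained. In SUZ12-/- H1, CDH16 was at 11.05 and 12.45 TPM and AQP2 at 1.25 and 2.3. In the other PRC2-null samples CDH16 was at most at 0.41 and AQP2 at 0.18. UMOD, the marker of the thick ascending limb, was at 0 in all 19 samples, and SLC34A1, the phosphate transporter of the proximal tubule, at 0 to 0.11. SLC12A1, SLC12A3 and KCNJ1 stayed below 1 TPM in the PRC2-null samples.

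Markers of other tissues in which some of the 9 factors are made were read in the same samples. The 8 lateral plate and heart markers summed to 191 to 487 TPM in the PRC2-null samples and 0.3 to 1.44 where H3K27me3 is retained, and all 8 rose, beside 13.6% of all genes. All 8 were below 1 TPM in every sample that retains H3K27me3 and could be tested through the PRC2-null lines alone. Of the 8 mesothelial and epicardial markers 6 rose and 1 fell (summed 495 to 1023 and 113 to 197 TPM), of the 8 gonad markers 4 rose (104 to 179 and 7.46 to 13.2), of the 6 thyroid markers 2 rose (9.33 to 19.2 and 0.86 to 2.47), and of the 7 hindbrain, otic and placode markers 2 rose (17.8 to 39.0 and 1.93 to 4.08). The mesothelial sum was mostly KRT19, a keratin of many epithelia, at 409.63 to 942.1 TPM in the PRC2-null samples, and the gonad sum mostly GATA4, which is also in the lateral plate and heart list, at 68.67 to 124.12. The 7 paraxial mesoderm markers summed to 5.1 to 14.99 and 7.95 to 24.6 TPM, with 0 up and 1 down in limma. The thyroid markers that rose were TG, at 2.93 to 13.19 TPM in the PRC2-null samples, and FOXE1, at 2.46 to 10.56. Those of the gonad were GATA4, AMHR2, FOXL2 and SOX9. Other markers were low, with NR5A1 of the gonad, SLC5A5 of the thyroid and MYF5 of the myotome at most at 1.16, 0.48 and 0 TPM in the PRC2-null samples. HAND2 had the order of lines of OSR1 and OSR2. It was at 8.93 and 8.46 TPM in EED-/- H1, 29.04 and 15.36 in EZH2-/-/EZH1-/- H1 and 166.82 and 170.11 in SUZ12-/- H1. The part of these cell types in the levels of the 9 factors was not tested.

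After DOX was withdrawn from H1-EED-/-/EED-OE cells, with 1 sample per day and therefore no replicate error at any day, the 9 factors did not rise together. With DOX, 7 of them were at 0 to 0.63 TPM, SIX2 was at 1.03 and SALL1 at 28.21. The label of this sample also carries day 28. OSR1 was at 0.6, 0.49 and 0.27 TPM at days 8, 12 and 16 and at 4.28, 9.52 and 10.04 at days 20, 24 and 28. GDNF was at 1.14, 2.17, 3.4, 3.05, 17.08 and 26.35 TPM in the same order of days. Its antisense gene GDNF-AS1, whose reads cannot be told apart where the genes overlap, was at 3.54 to 9.09 TPM over these days. That is above GDNF at days 8 to 20. OSR1 and GDNF had their highest level in the last sample, when POU5F1 was at 33.56 and NANOG at 1.71 TPM, against 2916 and 54.09 with DOX. The 9 hESC markers summed to 1102 TPM in that sample, of which PODXL made up 573.36, and to 5110 with DOX.

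The highest of the 6 days was day 20 for 5 of the 9 genes and for 11% of the 17245 genes tested over the days, a description with 1 sample per day. OSR2 was at 1.06, 0.92, 1.01, 28.92, 2.76 and 2.42 TPM from day 8 to day 28, PAX2 at 1.24, 0.06, 0.3, 11.93, 3.24 and 1.06, and SALL1 at 71.66, 50.04, 34.11, 169.43, 29.98 and 17.51. For these 3 the day 20 sample stood above every other day and above each of the 12 samples of the lines, with the exception of PAX2 in 1 EED-/- H1 sample. SIX2 was nearly as high at day 8 as at day 20, at 23.35, 9.03, 7.02, 26.18, 8.36 and 3.92 TPM. SIX3, the neighbouring paralog 59111 bases away on chromosome 2, was at 37.6 TPM at day 8 and at 0.14 to 2.31 on later days. PAX8 was at 0.66, 4.09, 3.37, 5.21, 0.67 and 0 TPM, with day 20 close to day 12, and listed at 0 at day 28. EYA1 ran from 1.52 to 2.42 TPM with no clear peak. WT1 was at 0.63, 0.48, 0.87, 2.3, 10.62 and 1.12 TPM, highest at day 24.

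**Figure D3:**
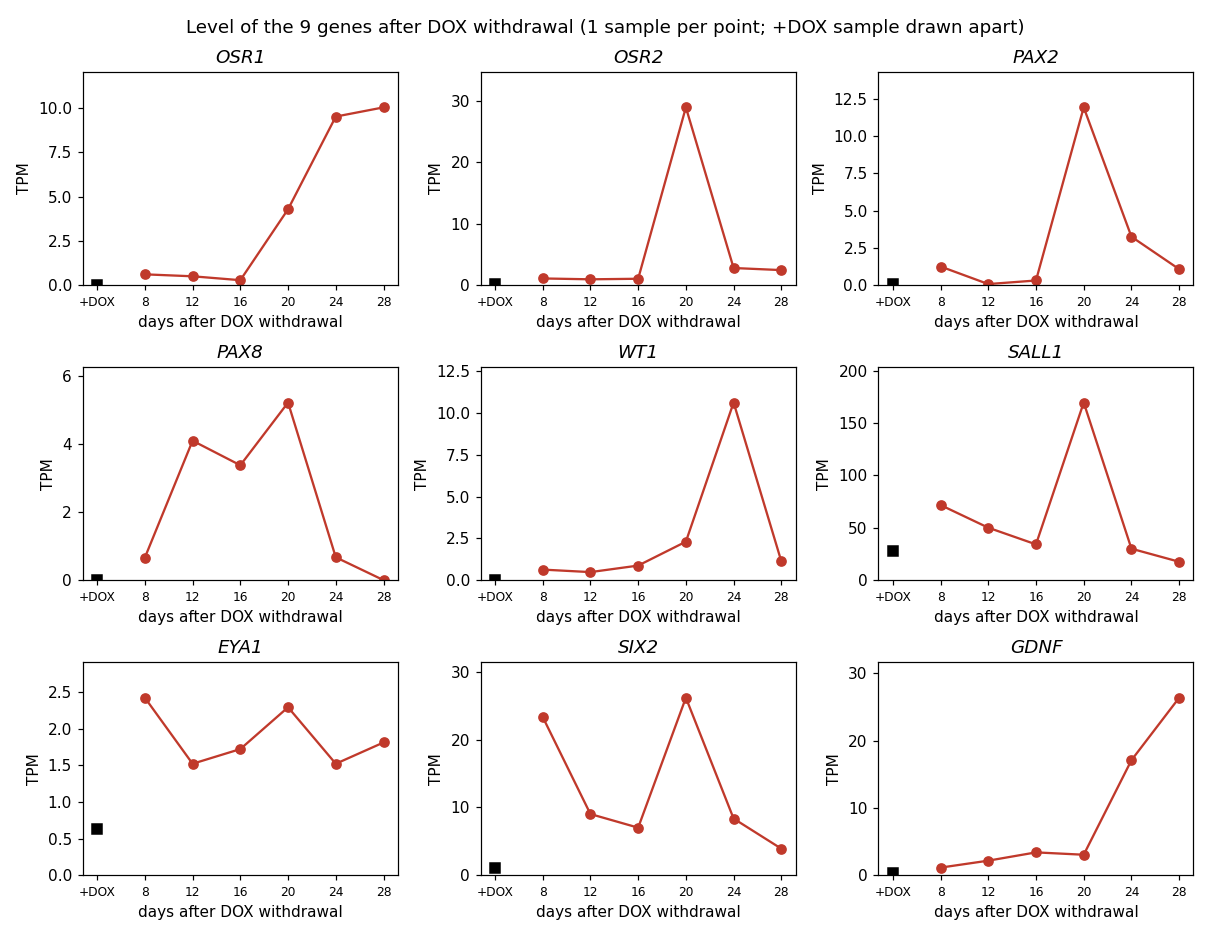
TPM (linear axes from 0, one scale per panel) of the 9 genes in H1-EED-/-/EED-OE cells with DOX (square, drawn apart) and at 6 days after its withdrawal (points, 1 sample each). OSR2, PAX2, PAX8, SALL1 and SIX2 were highest at day 20, WT1 at day 24, and OSR1 and GDNF at day 28.

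The day 20 sample also stood out in other lists. The 9 intermediate mesoderm partners summed to 24.2 TPM at day 16, 357 at day 20 and 176 at day 24, of which LHX1, a homeobox factor of the nephric lineage named here after its values were seen, made up 3.42, 181.68 and 21.18. Paraxial mesoderm markers summed to 87.8 TPM at day 20 and to 11.4 to 18.9 on other days, with TBX6 at 63.9 and MESP2 at 12.61. Lateral plate markers summed to 68.9 at day 16 and 665 at day 20, of which HAND1 made up 469.61. The hESC markers were between their early and late levels at day 20, at 2911 TPM after 6072 at day 16 and before 678 at day 24. At day 24, where WT1 was highest, the mesothelial and gonad lists summed to 805 and 256 TPM, below their 967 and 296 at day 28. KRT19 made up 553.89 and 897.01 TPM of the mesothelial sums at days 24 and 28, and GATA4 202.57 and 213.02 of the gonad sums. Single markers of these lists differed. ALDH1A2 was at 177.89 TPM on day 24 and at most 13.2 on other days. LRRN4 (42.8), BNC1 (13.88), TBX18 (10.93) and TCF21 (4.43) were also highest at day 24, but UPK3B and MSLN at day 8. In the gonad list AMHR2 (9.07) was highest at day 24, but the other markers were not, with NR5A1 at 0.39. Tubule genes were at 3.49 to 5.51 TPM in sum on days 8 to 20 and at 67.1 and 66.7 on days 24 and 28, of which AQP1 made up 60.04 and 49.8. With 1 sample per day, a state of the culture at that day and a property of that sample cannot be told apart.

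**Figure D4:**
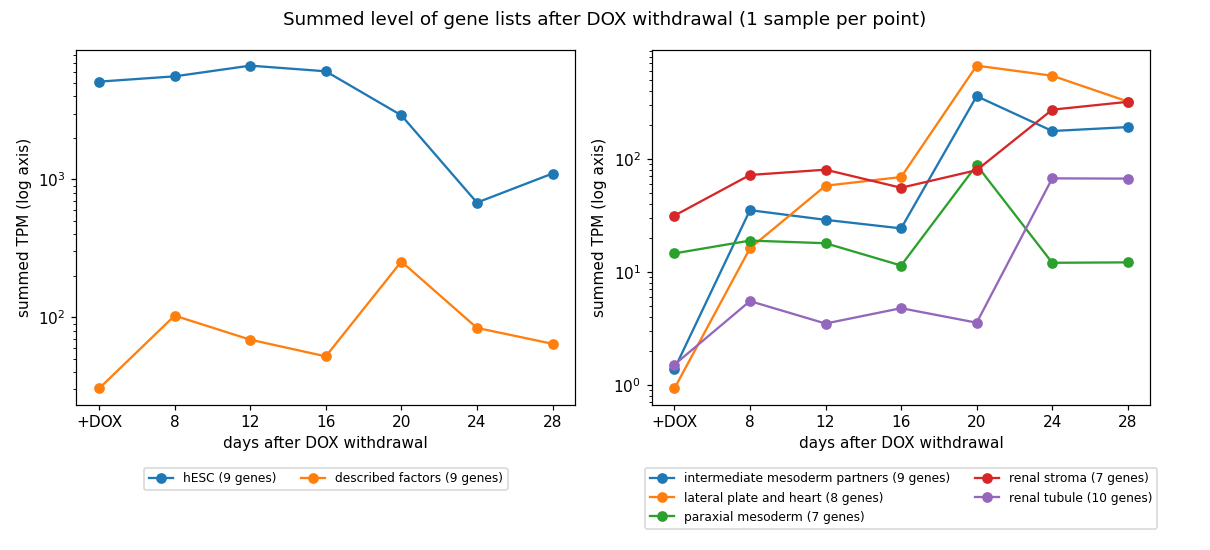
Summed TPM (log axes) of gene lists in H1-EED-/-/EED-OE cells with DOX and after its withdrawal, 1 sample per point. The left panel shows the hESC markers and the 9 factors, whose sum held 169.43 TPM of SALL1 at day 20, and the right panel lists of mesoderm and kidney genes, of which the intermediate and paraxial mesoderm and lateral plate lists were highest at day 20.

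A straight line over the 6 days was also fitted. In limma with the day as covariate, 0 of the 9 slopes passed an adjusted p of 0.01, beside 1.36% of 17245 genes with a rising and 0.661% with a falling slope. An unadjusted p under 0.05 was found for 2 of the 9, beside 6345 of the 17245 genes. The 2 were GDNF (0.18 per day on the log2 scale, SE 0.0315, adjusted p = 0.013) and OSR1 (0.17 per day, SE 0.0369, adjusted p = 0.022). GDNF was called without day 20 and with the DOX sample set as day 0. Beside the EED-/- H1 line, which lost EED by deletion, the day 28 sample had 26.35 TPM of GDNF (24.84 and 15.76 in EED-/- H1), 10.04 of OSR1 (3.42 and 4.97), 2.42 of OSR2 (3.97 and 4.1), 3.92 of SIX2 (5.78 and 3.07) and 17.51 of SALL1 (10.49 and 10.09). It had 1.06 TPM of PAX2 (18.3 and 3.1), 0 of PAX8 (2.43 and 0.67), 1.12 of WT1 (0.46 and 1.05) and 1.81 of EYA1 (1.58 and 1.45).

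Over all 19 samples, the factors differed in the company they kept. Pearson's r of log2(TPM + 1) between pairs of the 9 ran from -0.52 (SALL1 and GDNF) to 0.86 (OSR1 and OSR2), with a median of 0.55 over 36 pairs, and PAX2 correlated more with OSR2 (0.79) than with PAX8 (0.60). These are descriptions over samples that share lines and a time course. Of the 19721 genes compared, those most like OSR1 were BMP5 (0.98), HAND2 (0.98) and PRRX1 (0.98), and those most like OSR2 were DLX2 (0.98), GATA3-AS1 (0.94) and SERPINB2 (0.93). Those of GDNF were CDKN1A (0.98), EN2 (0.97) and FOXL1 (0.97), and those of PAX2 were LIX1 (0.93), AC106786.1 (0.92) and C2CD4A (0.92). PAX8 was closest to RIMBP2 (0.89), KAZN (0.89) and HOXA2 (0.87), and WT1 to KCNA3 (0.92), EBF3 (0.90) and GGT5 (0.89). SALL1 was closest to RP11-420N3.3 (0.93), CACNA2D2 (0.93) and SKA1 (0.90), EYA1 to AGAP9 (0.93), LYRM5 (0.92) and EFNA5 (0.90), and SIX2 to DMBX1 (0.87), RP11-1055B8.4 (0.85) and HES7 (0.85). None of the 8 other factors was among the 3 nearest genes of any of the 9.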

How the data were processed

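RNA-seq was made by the authors from Trizol RNA with TruSeq RNA libraries on an Illumina NextSeq. The submitters' processing notes name Bowtie and RSEM and the builds GRCh38, hg38 and hg19, and the study's methods name an mRNA reference of GRCh38. The authors deposited 1 file of TPM per sample for 33382 genes, and their edgeR test on counts was not repeated because TPM are not counts. Depth is unknown, so no interval for counting error is given. Files were joined by Ensembl identifier. Values were taken as log2(TPM + 1), and a fold change on this scale understates that of low genes. The 19100 genes that reached 1 TPM in 2 or more of 12 samples were fitted with limma 3.58.1 in R 4.3.3 (lmFit, contrasts.fit, eBayes with trend and robust), 1 mean per line and 6 residual degrees of freedom. Samples of a line differ in clone or passage name, and where they are not separate cultures p-values measure technical spread only. The slope over days used 6 samples and the 17245 genes that reached 1 TPM in 2 or more of the 7 samples of the time course. Calls are at an FDR of 1% and, for lines, a fold change of 3. The tests were checked on simulated data with independent normal errors, and changes between lines were added only to genes of higher mean level. That check does not cover rises from levels near 0 or samples that are not separate cultures. Alternatives were a pseudocount of 0.1, no filter, eBayes without the robust option, an FDR of 5% without a fold change minimum, scaling by median ratios (12308 genes), only the 4 samples compared, leaving out each sample or day, and the DOX sample as day 0. The 9 factors and all lists were chosen with earlier results of these data known. Named genes were the 9 factors, the 4 targeted genes, in each kidney list the 2 called genes with the largest absolute log2 difference between the mean of the 3 PRC2-null lines and WT H1, the 3 genes most correlated with each factor, and markers given beside a result. Gene positions are from GENCODE release 44 and promoters from RefSeq, both GRCh38. Genes over which paralogs or antisense genes share reads could be divided wrongly by the quantification. Python 3.11.15 and matplotlib 3.10.9 were used for tables and figures. Some listed genes are not reported here.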

Additional observations from a re-analysis of the deposited data

Results flagged for a closer look

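For 4 of the 9 factors the change differed between PRC2-null lines, by a test of the difference itself in limma with 2 samples per line. Of all genes, 3.54% were called up and 2.58% down in SUZ12-/- against EED-/- H1, and 3.32% up and 1.14% down in SUZ12-/- against EZH2-/-/EZH1-/- H1. SUZ12-/- H1 exceeded EED-/- H1 by 2.22 for OSR1 and 1.84 for OSR2 on the log2 scale, and GDNF differed by -1.73. Against EZH2-/-/EZH1-/- H1, GDNF in SUZ12-/- H1 differed by -1.89 and PAX8 by 1.65. None of these 5 calls held with a pseudocount of 0.1, and all but that of OSR1 were lost without SUZ12-/- H1 replicate 1 and without SUZ12-/- H1 replicate 2. The HAND2 level, a lateral plate and heart marker, ran with OSR1 and OSR2 between these lines (8.46 to 8.93 TPM in EED-/- H1 and 166.82 to 170.11 in SUZ12-/- H1). Its part was not tested. The lines also differ in clone, which cannot be told apart from the deleted gene. EED-/- H1 replicate 1 had 18.3 TPM of PAX2 against 3.1 in replicate 2.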

How the results depend on the processing

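No paired analysis was possible because the labels carry clone or passage names and no replicate numbers. Leaving out each sample in turn, the number of factors called was 4 to 6 in EED-/- H1 (5 with all samples), 4 to 6 in SUZ12-/- H1 (6), 4 to 5 in EZH2-/-/EZH1-/- H1 (5), 0 in EZH1-/- and EZH2-/- H1, 3 to 5 between the mean of the 3 PRC2-null lines and WT H1 (5), 4 to 5 in that against the 3 lines that retain H3K27me3 (4), 1 to 4 in SUZ12-/- against EED-/- H1 (3), 0 to 1 in EZH2-/-/EZH1-/- against EED-/- H1 (0) and 0 to 4 in SUZ12-/- against EZH2-/-/EZH1-/- H1 (2). Without EED-/- H1 replicate 2, PAX2 was called between EED-/- H1 and each other PRC2-null line, and without EZH2-/-/EZH1-/- H1 replicate 1, OSR1 and SIX2 were called in the last comparison. With a pseudocount of 0.1, 7 were called in the average against the 3 lines, beside 4086 of 19100 genes up and 1507 down. This setting called 0 in SUZ12-/- against EED-/- H1 (552 up and 376 down over all genes) and 0 against EZH2-/-/EZH1-/- H1 (405 and 167). With an FDR of 5% and no fold change minimum, 9 were called in the average against the 3 lines. Of the 19100 genes, 8370 were then called up and 4728 down. That setting called 8 in the average against WT H1 (6956 up and 3848 down over all genes). In SUZ12-/- against EZH2-/-/EZH1-/- H1 it called 4 (1605 and 1123). In SUZ12-/- against EZH2-/-/EZH1-/- H1, no filter gave 1 and a fit of the 4 samples alone gave 0. The slope over days called 1 (GDNF) without day 20 and 1 with the DOX sample as day 0, against 0 with the 6 days. The cause of these shifts was not tested. Of 1672 single values under an alternative, 0 called values changed sign, 65 lost and 32 gained a call, and of 1109 called in neither fit 32 changed sign. Fits that leave 1 sample in a line take its spread from the other lines. Depth is unknown, and differences from levels near 0 grow with a smaller pseudocount, as for PAX2 in EED-/- H1 (3.15 with 1 and 6.26 with 0.1).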
